A study of Mus musculus with 4 samples.

Results

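The cells described here were non-dividing CD8+ T cells with little or no macrophage RNA, from tumors of mice given oxaliplatin with an antibody to PD-L1 (Combo) or oxaliplatin alone (Oxali). A barcode was kept when it had at least 500 genes, at most 10% mitochondrial UMIs (unique molecular identifiers, each counted as 1 RNA molecule), at least 1 UMI of Cd3d, Cd3e or Cd3g and at least 1 of Cd8a or Cd8b1. It was left out when it held more than 1 UMI of the macrophage genes C1qa, C1qb, C1qc, Apoe and Lyz2 together, any UMI of Siglech, or more than 1 UMI of the division genes Mki67, Top2a, Birc5 and Ube2c together. The cells were thus selected on raw UMI counts of these genes, and the rule left 1292 cells of 2750 Oxali and Combo barcodes, and of 5508 barcodes in the whole series. They were 709 of 1426 Oxali barcodes (49.72%) and 583 of 1324 Combo barcodes (44.03%). The same limits kept 517 Ctrl and 824 aPD-L1 cells, whose values stand beside those of Oxali and Combo.

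Male FVB mice of every group bore Myc-CaP tumors under the skin, grown from injected cells of a prostate cancer line that carries a Myc transgene, and cells were sorted as CD3+ CD8+ before single-cell RNA-seq with a 3′ droplet kit. Ctrl mice received neither agent, aPD-L1 mice received anti–PD-L1 at 10 mg/kg, Oxali mice received oxaliplatin at 6 mg/kg, and Combo mice received both at these doses, each week for 3 to 4 weeks. Each group was 1 library, and how many mice it holds is not given in the sources used here. No difference below therefore has a replicate check, no p-value was computed, and an effect of treatment cannot be told apart from a difference between these 2 libraries.

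The kept cells held 2205150 UMIs in Oxali and 1995850 in Combo, with medians of 2554 and 2834 UMIs and 1006 and 1167 genes per cell. Mitochondrial genes gave a median of 3.17% and 2.5% of UMIs, and ribosomal protein genes 33.66% and 28.79% of all UMIs, in the same order. Oxali and Combo shared no cell barcode, and Combo shared 1 with each of the other libraries. The macrophage limit removed 32.42% of Oxali and 36.41% of Combo cells with Cd3 and Cd8 UMIs, and the division limit then removed 3.274% (24 cells) and 8.044% (51 cells). Just inside the macrophage limit, with exactly 1 UMI, lay 159 Oxali and 132 Combo cells, and just outside it, with 2, lay 63 and 66. For the division limit these were 36 and 55 cells inside, and 4 and 11 outside. These genes chose the cells and are not results. Of 10 T-cell markers, 3 were read by the limits. The other 7 were all measured, and none differed by 1.5-fold. Without the 5 genes that the limits capped, the macrophage list summed to 480.2 CPM (UMIs of a gene scaled to a library total of 1000000) in Oxali and 605.7 in Combo, with 1 of 6 measured members, Fcer1g, over 1.5-fold higher, and those of B and plasma cells to 21.31 and 13.03. No erythroid marker had a UMI in either library, and fibroblast markers were at 0 in Oxali and summed to 0.501 CPM in Combo. The CD4 and regulatory T-cell list summed to 130.1 and 296.6 CPM, and all 4 measured members, Il2ra, Ctla4, Ikzf2 and Tnfrsf4, were over 1.5-fold higher in Combo. Of its defining genes, Cd4 had 2 UMIs in Oxali and 25 in Combo, and Foxp3 had 8 and 12. The gamma-delta list summed to 111.1 and 184.9 CPM and the NK list to 193.2 and 290.1. Cells with a UMI of any of 5 genes of other lymphocytes, among them Foxp3, Il17a, Ncr1 and Trdc, made up 2.71% of Oxali and 4.76% of Combo cells at equal depth. The part of other lymphocytes in the results was not tested beyond leaving such cells out, as given with the receptors.

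CD8+ T cells that have not met their antigen, and some memory cells, express the transcription factors Tcf7 and Lef1 and the lymph node homing receptor Ccr7. When the T-cell receptor is engaged these genes are turned down, granzymes, perforin and cytokines are made, and receptors that restrain the cell, such as PD-1 (Pdcd1), appear on its surface. PD-1 binds PD-L1 on tumor and myeloid cells, and antibodies to PD-L1 block that contact. Lasting stimulation in tumors leads to a state called exhaustion, in which several inhibitory receptors are held at once under the transcription factor Tox.

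Across the 6444 genes with at least 50 UMIs over both libraries, 491 were at least 1.5-fold higher in Combo (7.62%) and 179 at least 1.5-fold lower (2.78%). With the further demand that the 95% exact counting interval of the ratio exclude 1, 404 (6.27%) and 122 (1.89%) were left, and 88 and 37 genes passed 2-fold. The median log2 ratio over all tested genes was 0.11, with quartiles of −0.10 and 0.31, against which the ratio of a gene is to be read. The split between directions depended on the scale. With the median set to 0 it was 329 higher and 292 lower, and with CPM taken over genes other than ribosomal protein and mitochondrial genes it was 300 higher and 340 lower. Brackets hold 95% exact intervals. These take in the error of counting alone, and no difference between mice or libraries. A ratio of CPM over summed cells also cannot tell more cells in a state from more RNA per cell.

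**Figure D1:**
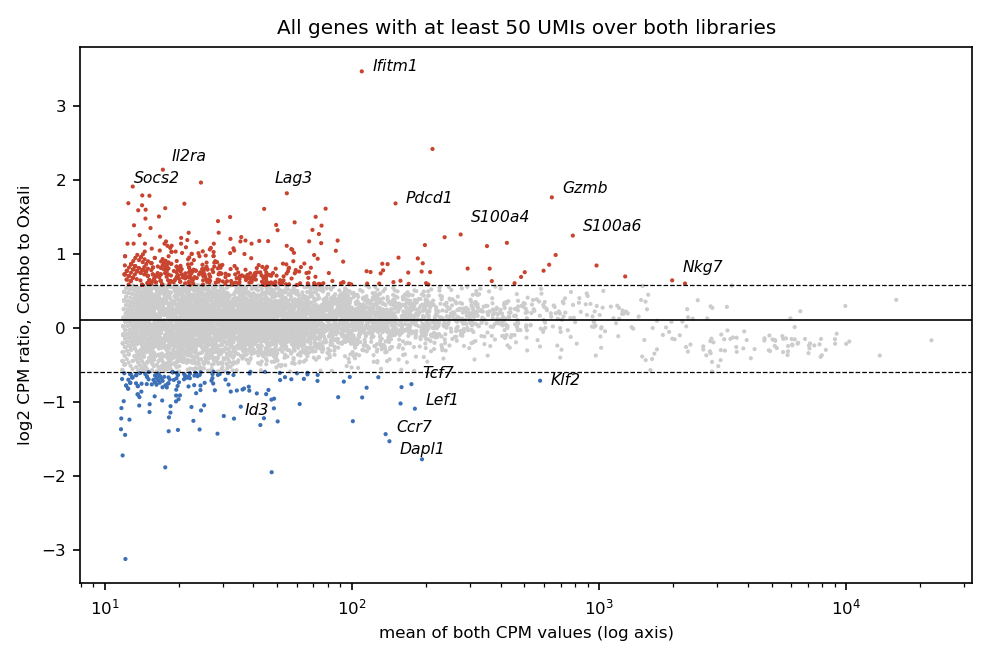
Log2 ratio of CPM in Combo to CPM in Oxali (y axis) against the mean of both CPM values (x axis, log scale) for the 6444 genes with at least 50 UMIs. Red points are the 491 genes at least 1.5-fold higher in Combo, blue points the 179 at least 1.5-fold lower, dashed lines mark 1.5-fold and the solid line the median of 0.11. Gzmb, Pdcd1 and Lag3 lie high and Ccr7, Dapl1 and Lef1 low.

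Genes of naive and memory T cells were lower in Combo. Of 25 measured, 17 were at least 1.5-fold lower and none as much higher, with a median log2 ratio of −0.88. Ccr7, the receptor that leads T cells to lymph nodes, was at 154.1 CPM in Ctrl, 153 with aPD-L1, 200 with Oxali and 74.15 with Combo, 2.70-fold lower in Combo than in Oxali [2.23, 3.27]. It had its highest value in Oxali and its lowest in Combo. The transcription factor gene Lef1 was at 179.1, 191.6, 244.9 and 115.2 CPM in the same order, 2.13-fold lower [1.82, 2.49]. Its partner Tcf7 was at 180.3, 195.6, 219 and 129.8 CPM, 1.69-fold lower [1.45, 1.97]. Dapl1 was at 113, 128.4, 210.9 and 73.15 CPM, 2.88-fold lower [2.39, 3.50], and had the lowest ratio of the genes ranked by the naming rule.

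Satb1, Id3, S1pr1 and Il6ra were also lowest of the 4 libraries in Combo. Satb1, a chromatin organizer, was at 210.9 CPM in Oxali and 104.2 in Combo, 2.02-fold lower [1.72, 2.39]. Id3, an inhibitor of E proteins, was 2.12-fold lower [1.56, 2.90], S1pr1, the receptor that lets T cells leave tissue, 1.91-fold lower [1.53, 2.39], and Il6ra, a subunit of the interleukin-6 receptor, 2.33-fold lower [1.60, 3.45]. Klf2, which drives S1pr1, was at 1215 CPM in Ctrl, 704.4 with aPD-L1, 717.4 with Oxali and 438.9 with Combo, 1.63-fold lower. Here the highest value was that of Ctrl. Klf3 and Foxp1, both transcription factor genes, were 1.91-fold and 1.74-fold lower. The survival gene Bcl2 was at 487 CPM in Oxali and 536 in Combo, a ratio of 1.10, and the interleukin-7 receptor gene Il7r at 359.2 and 268.1, a ratio of 0.746, so neither passed 1.5-fold. Combo was the lowest of the 4 libraries for 20 of the 25 genes, against 15.5% of all tested genes.

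Fewer Combo cells carried these RNAs. After each cell was thinned to 1500 UMIs, which left 628 Oxali and 546 Combo cells and set aside 81 and 37 shallower ones, a Lef1 UMI was seen in 30.4% of Oxali cells [26.8, 34.2] and 15.2% of Combo cells [12.3, 18.5]. Ccr7 was seen in 23.2% [20, 26.8] and 9.52% [7.19, 12.3], and without thinning in 33.3% and 14.8%. For comparison, 54 barcodes of both libraries with no Cd3 or Cd8 UMI and at least 1500 UMIs held Lef1 in 0 and Ccr7 in 4 (7.41%). The median depth of all 80 such barcodes was 2174.5 UMIs. They hold other cells, with a Cd74 UMI in 51.9% against 9.71% of Oxali cells, so their shares (as non-T barcodes below) are those of other cells with any free RNA, and the share from free RNA alone was not measured. At least 2 of 5 naive-marker genes, which include Ccr7, Lef1, Tcf7 and Dapl1, were seen in 35.5% of Oxali cells [31.8, 39.4] and 12.8% of Combo cells [10.1, 15.9]. In Ctrl the share was 23.1% and in aPD-L1 27.6%, both between Oxali and Combo.

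**Figure D2:**
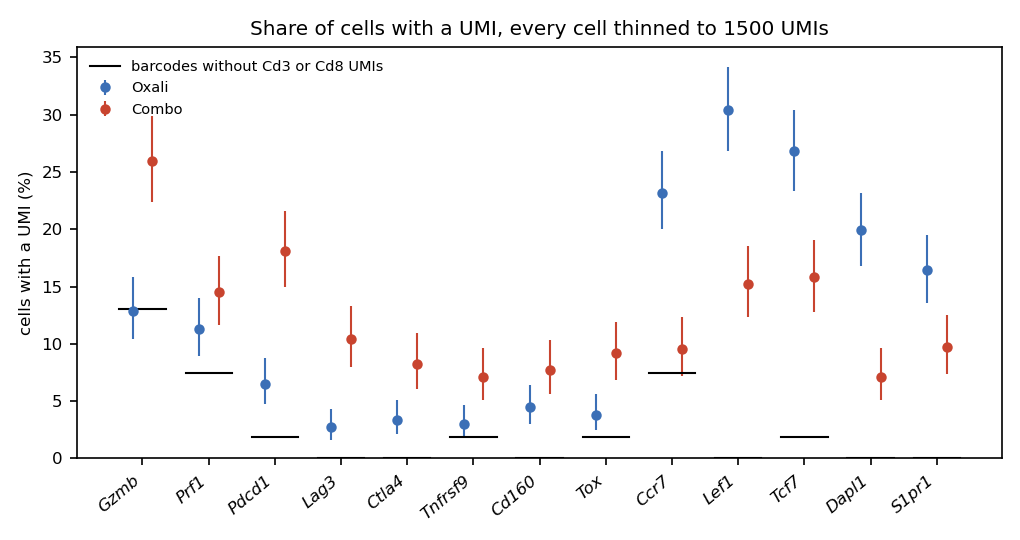
Share of cells with at least 1 UMI of each gene (y axis, percent) in Oxali (blue, 628 cells) and Combo (red, 546 cells) after every cell was thinned to 1500 UMIs. Points carry exact 95% binomial intervals and the black line is the share in 54 barcodes without Cd3 or Cd8 UMIs; Pdcd1 was seen in 6.53% and 18.1% and Lef1 in 30.4% and 15.2%.

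Since the libraries differed in how many cells carried naive markers, the comparison was repeated within 2 ranges of cells. Cells with at least 2 UMIs of the same 5 genes together (naive-marker high) were 399 of 709 in Oxali (56.3%) [52.5, 60] and 190 of 583 in Combo (32.6%) [28.8, 36.6]. Cells with at most 1 (naive-marker low) were 310 and 393. The ranges are a division of a continuous count and not cell types. Cells at the border, with 1 or 2 UMIs, numbered 121 and 96 in Oxali and 114 and 65 in Combo. Naive-marker low cells were also shallower, with medians of 2043.5 UMIs in Oxali and 2600 in Combo against 3096 and 3577.5.

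Within the naive-marker low cells, 252 of 4450 genes were at least 1.5-fold higher in Combo (5.66%) and 117 lower (2.63%). Within the naive-marker high cells these were 315 of 4466 (7.05%) and 164 (3.67%). Of the genes called higher over all kept cells, 307 had enough UMIs in the low range, where 121 stayed past 1.5-fold and 295 stayed above 1. In the high range 208 were measured, 138 stayed past 1.5-fold and 204 above 1. For genes called lower, 21 of 39 stayed past 1.5-fold in the low range and 61 of 103 in the high range. Both ranges are parts of the UMIs on which these genes were called, so these counts are a description and no separate check. Of the naive and memory list without the 5 marker genes, 14 were measured in the low range, with a median log2 ratio of −0.45 there and −0.61 for the same genes over all kept cells. In the high range 20 were measured, with medians of −0.46 and −0.75. Tcf7 was at 292 CPM in Oxali and 285.5 in Combo within the high range, a ratio of 0.978, but 69.23 and 33.99 within the low range. The 5 marker genes define the ranges and their values there are a description only.

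Some genes of the killing machinery were higher in Combo. Of 12 measured granzyme and perforin pathway genes, 5 were at least 1.5-fold higher, 1 was lower and 6 did not pass, with a median log2 ratio of 0.50. Gzmb, the granzyme that starts apoptosis in target cells, was at 348.1 CPM in Ctrl, 572 with aPD-L1, 292.5 with Oxali and 997.6 with Combo, 3.41-fold higher in Combo than in Oxali [3.12, 3.73]. It was seen in 12.9% of Oxali cells [10.4, 15.8] and 26% of Combo cells [22.4, 29.9] at 1500 UMIs, and cells with it held 3.35 and 4.77 UMIs on average. The non-T barcodes had it in 7 of 54 (13%), close to the Oxali share. Within the naive-marker low range Gzmb was 2.45-fold higher and within the high range 1.53-fold. Without the 5% of cells with the most UMIs it was 2.76-fold higher, and as a mean of per-cell CPM 2.48-fold.

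Prf1, the pore-forming protein that lets granzymes in, was at 72.59, 105.5, 88.43 and 149.8 CPM in the order Ctrl, aPD-L1, Oxali and Combo, 1.69-fold higher in Combo than in Oxali [1.41, 2.04]. In naive-marker high cells its ratio was 0.922. Nkg7, a cytotoxic granule protein, was at 1503, 1784, 1542 and 2417 CPM, 1.57-fold higher [1.499, 1.64]. Serpinb9, which protects the killer cell from its own granzyme B, was 2.51-fold higher [1.85, 3.43], and the related Serpinb6b 2.84-fold [2.19, 3.72]. Gzma was at 112 CPM in Oxali and 140.8 in Combo, a ratio of 1.26 [1.06, 1.497] that did not reach 1.5-fold, and 1 cell held 25.5% of its Oxali UMIs. Gzmk was at 29.93 and 32.07 CPM. Gzmm was the member that was lower, at 20 and 12 CPM, with an interval of the fold that includes 1 [0.997, 2.94]. The late effector granzymes Gzmd, Gzme and Gzmf had at most 1 UMI in either library.

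Cytokine and chemokine differences rested more on single cells. Of 10 measured effector cytokines and killing ligands, 4 were at least 1.5-fold higher and none lower, with a median log2 ratio of 0.24. Ifng, the main cytokine of CD8+ T cells, was at 329.6 CPM in Ctrl, 114.3 with aPD-L1, 66.66 with Oxali and 357.7 with Combo, 5.37-fold higher in Combo than in Oxali [4.49, 6.45]. A single Combo cell held 57.8% of the Combo UMIs and a single Oxali cell 27.2% of the Oxali UMIs, and without these cells the ratio was 3.11. With no UMI of the 5 macrophage genes allowed it was 2.18, without the 5% of cells with the most UMIs 2.94, and as a mean of per-cell CPM 3.61. With no UMI of the 4 division genes allowed it was 8.49, and with no division limit 3.63. The share of cells with an Ifng UMI was 5.41% [3.78, 7.48] and 12.6% [9.97, 15.7], against 1 of 54 non-T barcodes. In naive-marker high cells the ratio was 1.17. Tnf was at 17.23 and 38.08 CPM in Oxali and Combo, 2.21-fold higher [1.48, 3.35], and was seen in 3.34% and 6.41% of cells. Lta and the death ligand gene Tnfsf10 were both 1.64-fold higher.

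Among 7 measured secreted chemokines 3 were higher. Ccl4, a chemokine of activated T cells, was at 843.1, 539.4, 370 and 598.7 CPM in the order Ctrl, aPD-L1, Oxali and Combo, 1.62-fold higher in Combo than in Oxali. But its ratio was 0.943 in naive-marker low cells, 1.29 in naive-marker high cells and 1.10 with no macrophage UMI allowed. With no division UMI allowed it was 3.72. One Oxali cell held 23.5% of its Oxali UMIs, and without the top cell of each library the ratio was 1.90. Ccl3 was 2.52-fold higher, with 39.1% and 32.8% of the UMIs in 1 Oxali and 1 Combo cell, and 2.78-fold higher without them, but 1.56-fold without the 5% of cells with the most UMIs, 1.58-fold with no macrophage UMI allowed, 1.46-fold in naive-marker low cells and 7.82-fold with no division UMI allowed. Cxcl10, an interferon-induced ligand of CXCR3, was at 41.72 and 109.2 CPM, 2.62-fold higher [2.04, 3.38], yet its share of cells was 2.87% in Oxali, 4.4% in Combo and 5.56% in the non-T barcodes. Xcl1, which attracts cross-presenting dendritic cells, had a ratio of 1.45 and 39.0% of its Oxali UMIs in 1 cell. Ccl5, the most abundant of these, was at 5677 and 6235 CPM, a ratio of 1.10.

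Inhibitory receptors and other exhaustion genes showed the highest share of members above 1.5-fold among the larger lists. Of 21 measured, 16 were higher in Combo and none lower, with a median log2 ratio of 0.91, beside 7.62% and 0.11 for all genes. Pdcd1 was at 86.27 CPM in Ctrl, 116.7 with aPD-L1, 71.2 with Oxali and 229.5 with Combo, 3.22-fold higher in Combo than in Oxali [2.68, 3.89]. It was seen in 6.53% [4.73, 8.75] of Oxali and 18.1% [15, 21.6] of Combo cells, and in 1 of 54 non-T barcodes. Lag3, a receptor for MHC class II, was at 37.48, 41.06, 24.03 and 85.18 CPM, 3.54-fold higher [2.59, 4.92]. Ctla4, which competes with Cd28 for its ligands, was at 47.6, 48.3, 31.74 and 85.68 CPM, 2.70-fold higher [2.03, 3.62]. In these 3 genes Combo was above every other library, and Oxali was the lowest.

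Tox was at 39.86, 48.7, 28.12 and 63.63 CPM in the order Ctrl, aPD-L1, Oxali and Combo, 2.26-fold higher in Combo than in Oxali [1.66, 3.12]. Cd160 was 2.17-fold higher [1.63, 2.89] and Entpd1, the ectoenzyme CD39 that degrades extracellular ATP, 1.88-fold [1.27, 2.80]. Havcr2, which encodes Tim-3, had 6 UMIs in Oxali and 34 in Combo, and Tigit 1 and 5, both under the minimum of 50. The ligand gene Cd274, which encodes PD-L1 itself, was at 30 and 27 CPM, a ratio of 0.887. Within naive-marker low cells Pdcd1 was 1.85-fold, Lag3 2.88-fold, Ctla4 2.40-fold and Tox 2.69-fold higher. Within naive-marker high cells these were 4.63-fold, 2.78-fold, 2.34-fold and 1.63-fold, although Lag3 and Tox rested on 48.67 and 46.04 CPM in Combo there. Over the list the median was 0.32 in the low range and 0.77 in the high range. Without the cells that held a UMI of the 5 genes of other lymphocytes, 686 Oxali and 548 Combo cells were left and Pdcd1 was 3.30-fold higher.

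Receptors were also seen together more often in Combo cells. At 1500 UMIs per cell, at least 1 of Pdcd1, Lag3, Havcr2, Ctla4, Tigit, Cd160 and Entpd1 was seen in 103 of 628 Oxali cells (16.4%) [13.6, 19.5] and 204 of 546 Combo cells (37.4%) [33.3, 41.6]. At least 2 were seen in 2.71% [1.58, 4.30] and 11.9% [9.31, 14.9], and at least 3 in 4 and 8 cells. In Ctrl at least 2 were seen in 4.15% and in aPD-L1 in 4.73%. Pdcd1, Lag3, Ctla4 and Cd160 were each seen in more Combo than Oxali cells, Lag3 in 10.4% against 2.71%. More cells with at least 2 would follow from this even if the receptors were unrelated. Whether they go together beyond that was not tested. Among Combo cells with a Pdcd1 UMI, Gzmb was seen in 33 of 99 (33.3%) [24.2, 43.5], and among those without in 24.4% [20.5, 28.6]. In Oxali these shares were 9 of 41 (22%) [10.6, 37.6] and 12.3% [9.72, 15.2]. In Ctrl they were 35% [20.6, 51.7] and 16.3% [13.1, 20], and in aPD-L1 41.8% [28.7, 55.9] and 16.1% [13.4, 19]. The Gzmb share was higher with a Pdcd1 UMI in every library, although the intervals overlap in Combo and Oxali. For Ifng the shares with and without a Pdcd1 UMI were 22.2% [14.5, 31.7] and 10.5% [7.83, 13.7] in Combo. In Oxali they were 14.6% [5.57, 29.2] and 4.77% [3.19, 6.82], with intervals that overlap. Cells of 1 library are not replicates, and whether the libraries differ in these pairs of shares was not tested.

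**Figure D3:**
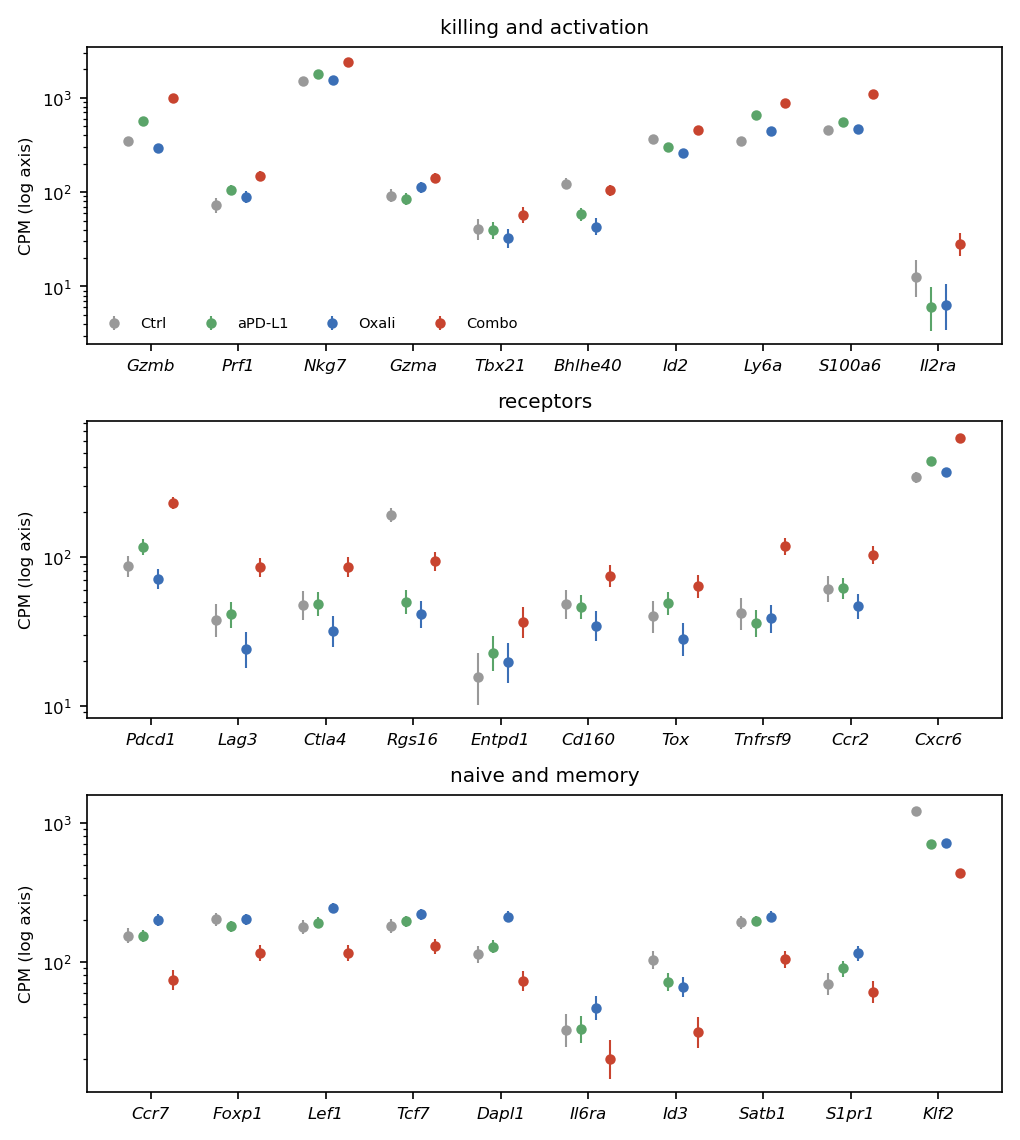
CPM (y axis, log scale) of 30 genes in the 4 libraries, summed over the kept cells, in 3 panels for killing and activation, receptors, and naive and memory genes. Bars are exact 95% Poisson intervals of the count. Pdcd1, Lag3 and Gzmb were highest in Combo, at 229.5, 85.18 and 997.6 CPM, and Ccr7 and Lef1 were lowest there.

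Genes of stimulatory receptors and of interleukin-2 signaling were higher in Combo in part. Of 10 costimulatory receptors measured, 3 were higher and none lower. Tnfrsf9, which encodes 4-1BB and is induced by antigen, was at 41.65, 35.82, 38.55 and 118.2 CPM in the order Ctrl, aPD-L1, Oxali and Combo, 3.07-fold higher in Combo than in Oxali [2.38, 3.98]. Cd226, a receptor that competes with Tigit, was 1.52-fold higher, and Icos had a ratio of 1.42. Il2ra, the alpha chain of the interleukin-2 receptor, had 14 UMIs in Oxali and 56 in Combo, 4.42-fold higher [2.43, 8.60], with 42.9% of the Oxali UMIs in 1 cell. Its ratio was 13.6 with no division UMI allowed. Socs2 and Cish, feedback inhibitors induced through STAT5, were at 9.977 and 39.08 CPM and at 36.73 and 77.16 CPM, 3.92-fold [2.42, 6.61] and 2.10-fold [1.60, 2.78] higher. Socs2 was seen in 1.27% of Oxali and 4.95% of Combo cells, but in 11.1% of the non-T barcodes. Among all 22 measured cytokine receptors and SOCS genes 6 were higher and 3 lower, with a median of 0.03.

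Of 23 transcription factors of effector and exhausted cells, 8 were higher and 1, Klf3, lower. Tbx21, which encodes T-bet, was at 40.46, 39.45, 32.65 and 57.62 CPM in the order Ctrl, aPD-L1, Oxali and Combo, 1.76-fold higher in Combo than in Oxali [1.30, 2.40]. Id2, which opposes E proteins in effector cells, was at 366.5, 297.9, 263 and 460 CPM, 1.75-fold higher [1.57, 1.94]. Bhlhe40 was at 123.2, 58.36, 43.08 and 104.2 CPM, 2.42-fold higher [1.89, 3.12], with Ctrl above Combo. Ikzf2 and Maf were 1.99-fold and 2.33-fold higher, with a ratio of 1.18 for Maf when no macrophage limit was set. Eomes was at 41 and 50 CPM, Runx3 at 180 and 157 and Batf at 54 and 62 in Oxali and Combo, none past 1.5-fold.

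Genes of the S100, galectin and annexin group, which are typical of antigen-experienced and migrating T cells, were higher in 8 of 22 measured and lower in none, with a median log2 ratio of 0.39. S100a6 was at 461.1 CPM in Ctrl, 560.7 with aPD-L1, 463.9 with Oxali and 1105 with Combo, 2.38-fold higher in Combo than in Oxali [2.21, 2.57]. S100a4 was at 186.2, 148.9, 161.9 and 389.8 CPM, 2.41-fold higher [2.12, 2.74]. The actin-capping protein gene Capg was 2.35-fold [2.05, 2.69], the membrane-binding Anxa2 2.18-fold [1.88, 2.53] and the galectin gene Lgals3 2.16-fold [1.94, 2.41] higher. For S100a6 the ratio was 1.68 in naive-marker low and 2.31 in naive-marker high cells. Macrophages express these genes too, and S100a6 was seen in 63.0% of the non-T barcodes, 26% of Oxali and 50.9% of Combo cells. With no UMI of the 5 macrophage genes allowed, S100a6 was 2.27-fold higher, and with no limit on them 1.98-fold. Vim, the intermediate filament vimentin, was 1.80-fold higher [1.69, 1.92], whereas none of 31 actin cytoskeleton genes passed 1.5-fold, with Actg1 closest at 1.49 and a median of 0.26.

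Ly6a, the activation marker Sca-1, was at 352.2, 649.7, 447.6 and 889.3 CPM in the order Ctrl, aPD-L1, Oxali and Combo, 1.99-fold higher in Combo than in Oxali [1.84, 2.15], and was seen in 29.9% [26.4, 33.7] and 54.2% [49.9, 58.5] of Oxali and Combo cells. In the non-T barcodes it was seen in 29.6%. Of its list of 21 surface activation genes, 5 were higher and none lower. Cd44 was 1.62-fold higher, at 29.02 and 47.1 CPM. The early activation marker Cd69 had a ratio of 1.37 [1.22, 1.52].

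Among 21 chemokine and homing receptors, 6 were higher and 3, Ccr7 and S1pr1 among them, lower. Ccr2, a receptor for inflammatory sites, was at 61.28, 61.58, 46.71 and 103.7 CPM in the order Ctrl, aPD-L1, Oxali and Combo, 2.22-fold higher in Combo than in Oxali [1.75, 2.84] and 1.43-fold with no macrophage limit. Cxcr6, found on tissue-resident and exhausted cells, was at 343.9, 439.5, 372.3 and 629.8 CPM, 1.69-fold higher [1.55, 1.85]. Of 17 tissue residency genes 7 were higher and none lower, with Litaf 2.63-fold [1.94, 3.62] and Rgs1, a regulator of chemokine receptor signaling, 2.23-fold [2.01, 2.46] higher. Litaf was seen in 4.14% of Oxali and 8.79% of Combo cells, but in 24.1% of the non-T barcodes. Rgs1 was at 1060 CPM in Ctrl, 344.5 with aPD-L1, 263 with Oxali and 585.7 with Combo, so Combo was above Oxali but below Ctrl. The integrin genes Itgae and Itga1 were 1.53-fold [1.11, 2.13] and 1.71-fold [0.970, 3.07] higher at 47 and 17 CPM in Combo, the second with an interval that includes 1.

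Killer lectin-like and NK receptor genes, which effector CD8+ cells also use, were higher in 6 of 12 measured and lower in none, and Combo was the highest of the 4 libraries in all 12, against 44.6% of all tested genes. Klrk1, which encodes NKG2D, was at 131.5, 161, 126.5 and 243.5 CPM in the order Ctrl, aPD-L1, Oxali and Combo, 1.92-fold higher in Combo than in Oxali [1.66, 2.24]. Its ratio was 1.12 in naive-marker low and 2.74 in naive-marker high cells. Klrc2 and Klrc1 were 1.76-fold and 1.62-fold higher. The NK marker Ncr1 had 4 UMIs in Oxali and 37 in Combo, under the minimum of 50.

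Of 60 type I interferon antiviral genes measured, 13 were at least 1.5-fold higher, none was lower and 47 did not pass, with a median log2 ratio of 0.31. Rsad2, which encodes the antiviral enzyme viperin, was at 25.58, 28.98, 25.85 and 58.62 CPM in the order Ctrl, aPD-L1, Oxali and Combo, 2.27-fold higher in Combo than in Oxali [1.64, 3.17] and 1.37-fold with no macrophage limit. Mx1, an antiviral GTPase, was at 44.03, 37.84, 37.19 and 68.14 CPM, 1.83-fold higher [1.38, 2.44], and Ifi27l2a at 984.7, 1168, 973.6 and 1582 CPM, 1.62-fold [1.54, 1.72]. Isg15 had a ratio of 1.23. The list's median was −0.14 in naive-marker low cells, where 1 gene was higher and 2 were lower, and 0.35 in naive-marker high cells, where 8 were higher and 1 lower. None of the 10 interferon-inducible GTPases measured passed 1.5-fold either way, with a median of 0.21 that turned to the other side of 0 in naive-marker low cells.

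Many interferon-induced genes carry an interferon-stimulated response element, whose core was searched here as GAAANNGAAA on both strands in the 250 bases before each RefSeq start site (GRCm38.p6). It was found for 20 of the 50 type I interferon genes with a promoter entry (40%) and all 7 matched GTPases, against 3.46% of the 27025 genes in the table. Among the matched interferon genes it was present in 5 of 10 called higher and in 15 of 40 not called, and none of 15 inhibitory receptor or 21 naive genes had it. The first 3 below are among these 5 and are shown with Ifitm2, so that the windows can be compared. Of 4 matched Ifitm genes only Ifitm2 had the core, and Ifitm1 did not. Capitals mark the core or its reverse complement, and each window runs 5′ to 3′ toward the gene.
Rsad2, chr12:26456523-26456612, minus strand: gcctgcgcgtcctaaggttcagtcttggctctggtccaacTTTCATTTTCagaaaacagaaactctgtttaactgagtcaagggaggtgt
Oas1a, chr5:120907526-120907585, minus strand: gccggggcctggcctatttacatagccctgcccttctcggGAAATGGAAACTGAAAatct
Ddx60, chr8:61927994-61928086, plus strand: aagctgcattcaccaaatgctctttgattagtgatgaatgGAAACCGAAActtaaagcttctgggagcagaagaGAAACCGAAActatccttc
Ifitm2, chr7:140955962-140956047, minus strand: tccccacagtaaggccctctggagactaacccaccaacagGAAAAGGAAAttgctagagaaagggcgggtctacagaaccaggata
Oas1a, an oligoadenylate synthetase, and Ddx60, a helicase of antiviral defense, each hold 2 cores, which overlap in Oas1a. They were 1.5-fold [0.871, 2.63] and 1.65-fold [1.19, 2.31] higher in Combo, and the interval of Oas1a includes 1. A match of letters is a description and shows no binding.

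The Ifitm genes, membrane proteins that block viral entry, gave the highest single ratio. Ifitm1 was at 44.62 CPM in Ctrl, 25.76 with aPD-L1, 18.14 with Oxali and 201.4 with Combo, 11.1-fold higher in Combo than in Oxali [8.01, 15.8]. It came from few cells. It had a UMI in 10 of 709 Oxali cells and 33 of 583 Combo cells (5.66%), and at 1500 UMIs in 0.637% [0.174, 1.62] and 4.95% [3.28, 7.11], against 11.1% of non-T barcodes. Of the 40 Oxali UMIs 1 cell held 45%, and without the top cell of each library the ratio was 16.7. It was 3.09 with no macrophage limit, 4.27 with no division limit and 3.01 in naive-marker high cells. Of the 33 Combo cells, 28 were in the naive-marker low range, and 5 of the 10 Oxali cells were. Ifitm2 and Ifitm3 were 2.35-fold [1.65, 3.40] and 2.07-fold [1.66, 2.59] higher, but their ratios were 0.950 and 0.961 in naive-marker high cells and 0.747 and 0.692 when no macrophage limit was set. The non-T barcodes held them in 44.4% and 31.5%, well over the 3.66% and 9.71% of Combo cells. Ifitm10 was at 43.53 and 46.1 CPM.

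Of 25 MHC class I presentation genes none passed 1.5-fold, with a median log2 ratio of 0.29. H2-D1 was at 6013 and 7055 CPM and H2-K1 at 2967 and 3626 in Oxali and Combo, and the peptide transporter gene Tap1 had a ratio of 1.29. Of 4 measured MHC class II genes 3 were lower, with a large part of their Oxali UMIs in 1 cell. Cd74, the class II chaperone, was at 95.79, 152.6, 297.5 and 87.18 CPM in the order Ctrl, aPD-L1, Oxali and Combo, 3.41-fold lower in Combo than in Oxali [2.88, 4.06]. One Oxali cell held 34.8% of the Cd74, 47.0% of the H2-Ab1 and 39.7% of the H2-Aa UMIs of that library. The shares of cells with Cd74 were alike, 9.71% [7.51, 12.3] and 10.4% [8, 13.3]. Without the 5% of cells with the most UMIs the Cd74 ratio was 0.6665, still just past 1.5-fold lower, and that of H2-Aa 1.24. With no division limit these were 0.722 and 1.01, and in naive-marker low cells 0.809 and 1.21. Cd74 was thus not called with no division limit or in naive-marker low cells, and H2-Aa was not lower in any of these settings. In other settings both stayed past 1.5-fold lower. Without the top cell of each library the ratios of Cd74 and H2-Aa were 0.398 and 0.579. In naive-marker high cells they were 0.277 and 0.355, and with no macrophage UMI allowed 0.220 and 0.253.

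Oxaliplatin damages DNA, and p53 target genes were therefore listed, although both libraries had received it. Of 19 measured, 3 were higher and 2 lower. Cdkn1a, the p21 cell cycle inhibitor, was at 13 CPM in both, with a ratio of 0.991, and Mdm2, which degrades p53, had a ratio of 1.25. Plk3 was 2.05-fold and Aen 1.53-fold higher, and Sesn1 1.98-fold lower. Of 17 Bcl2 family genes 3 were higher. Bcl2a1a and Bcl2a1b, survival genes whose near-identical copies can share reads, were 2.28-fold [1.61, 3.26] and 1.70-fold [1.47, 1.97] higher, and Bak1, which opens the mitochondrial membrane, 1.64-fold.

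Of 23 G1/S and replication genes, 4 were higher and none lower, beside 7.62% of all genes, among them Lig1 (1.73-fold), Mcm5 (1.56-fold) and Tyms (1.82-fold) at 47.1, 39.58 and 19.04 CPM in Combo. More Combo than Oxali cells lay just inside the division limit, and with no division UMI allowed, which left 528 Combo and 673 Oxali cells, 1 of 20 measured was higher, Cdk6. Of 19 glycolysis genes 2 were higher and 2 lower, with a median log2 ratio of 0.40. Abundant members lay below 1.5-fold, such as Gapdh at 1336 and 1830 CPM. None of 59 nuclear genes of oxidative phosphorylation passed 1.5-fold (median 0.16). Of 13 genes of the mitochondrial genome 1, mt-Nd4l, was lower, with a median of −0.34, and none of 80 cytosolic ribosomal protein genes passed 1.5-fold, with a median of −0.21 and 73 below a ratio of 1. The ribosomal genes were chosen after their share of UMIs had been seen.

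Genes that respond to the T-cell receptor or to handling had medians near 0 as groups. Of 27 T-cell receptor signal genes 3 were higher, Rgs1, Nr4a2 and Nfatc2, and 1, Dgka, lower, with a median of 0.14. Of 23 AP-1 and immediate early genes 1 was higher and 1 lower (median −0.04), and none of 15 heat shock genes passed 1.5-fold (median −0.04), with Hspa1a at 168.7 and 186.9 CPM in Oxali and Combo beside 2171 in Ctrl. Of 22 NF-kB genes 3, Bcl3, Map3k14 and Rela, were lower and none higher (median 0.05). Rela, at 46.71 and 31.06 CPM, was 1.5-fold lower [1.09, 2.10], and the interval of Map3k14 included 1 [0.999, 2.31].

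**Figure D4:**
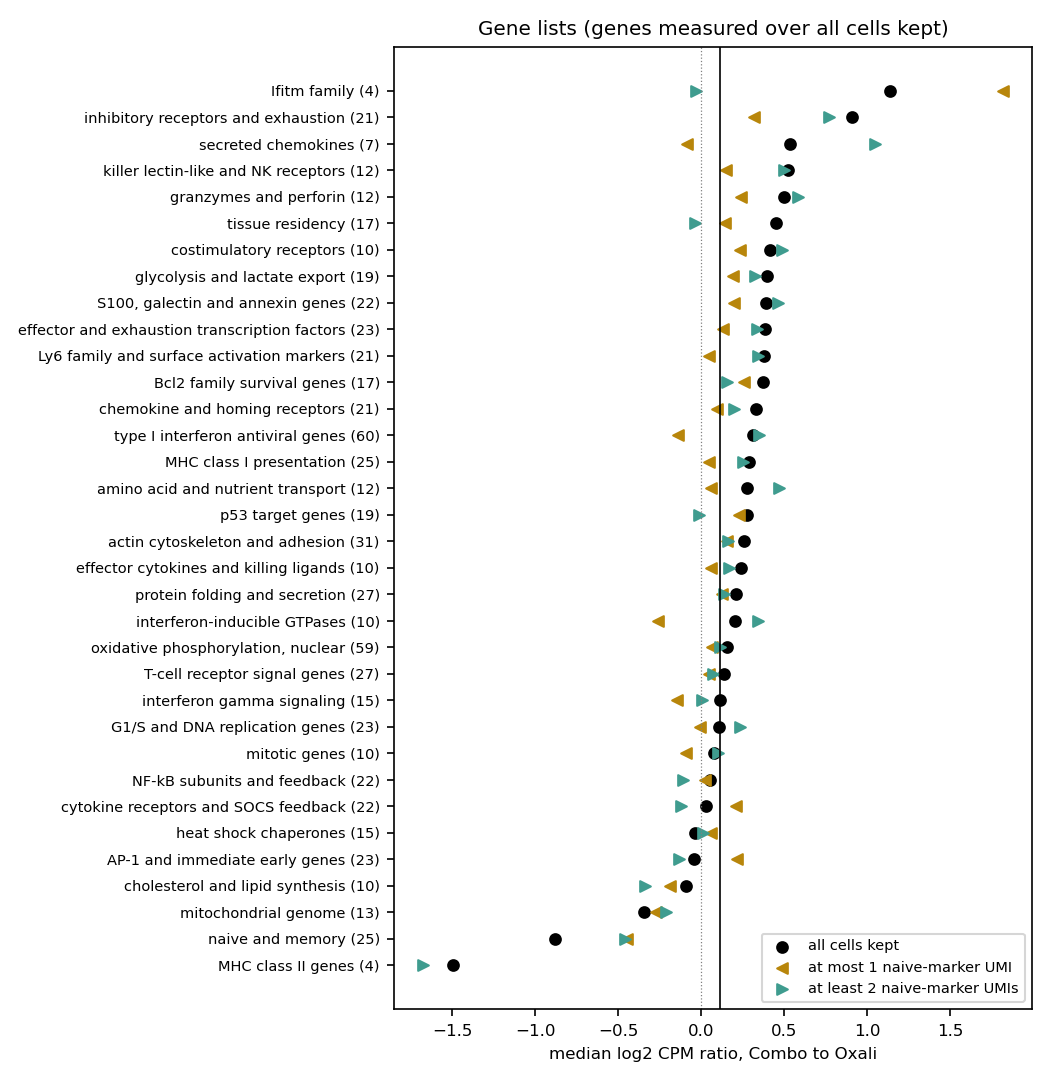
Median log2 CPM ratio of Combo to Oxali (x axis) for each gene list (y axis, with the number of genes measured over all kept cells), over all kept cells (black circles), naive-marker low cells (brown) and naive-marker high cells (green). The solid line is the median of all tested genes, 0.11; lists with fewer than 3 genes in a range have no point there. Inhibitory receptors lie right of the line in all 3 sets, at 0.91, 0.32 and 0.77, and naive and memory genes left of it, at −0.88, −0.45 and −0.46.

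Against all 4 libraries, Combo was the highest for 436 of the 491 genes called higher (88.8%) and the lowest for 141 of the 179 called lower (78.8%), beside 44.6% and 15.5% of all tested genes. This order uses the same Combo values as the calls and is a description. The comparison of aPD-L1 with Ctrl under the same limits shares no library with that of Combo with Oxali, and called 276 of 6279 genes higher (4.4%) and 309 lower (4.92%). Over the 6104 genes measured in both, 24 were higher in both, 5.62% of the Combo list and 9.13% of the aPD-L1 list, and 15 were lower in both, 9.55% and 5.34%. More went opposite ways than together among the genes higher in Combo: 42 were lower with aPD-L1, 9.84% of the Combo list and 14.9% of the aPD-L1 list, and 13 genes lower in Combo were higher with aPD-L1, 8.28% and 4.94%. For Pdcd1 the aPD-L1 to Ctrl ratio was 1.35, for Gzmb 1.64 and for Ccr7 0.993.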

How the data were processed

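Tumor-infiltrating CD3+ CD8+ cells of 4 groups were profiled, 1 library each. The authors deposited filtered matrices of raw UMI counts per gene and barcode, made with Cell Ranger 3.1.0 and mm10 per the labels. The data are UMI counts, so amplification copies were collapsed, but ambient RNA remains. Cells were kept by the limits given above, and their UMIs were summed per library and divided by the library total (CPM). Genes with at least 50 UMIs over Oxali and Combo were compared. A call is a CPM ratio of 1.5 either way, with counts under 3 set to 3. Ratio intervals (95%) are exact binomial, CPM intervals exact Poisson and shares exact Clopper-Pearson. For shares each cell was thinned to 1500 UMIs. With 1 library a group no test was possible.

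The cells and the 34 gene and 14 marker lists were chosen with earlier results of these data known. Genes named by rule were the 15 highest and 15 lowest ratios with at least 100 UMIs in 1 library and no cell over 20% of the UMIs in the higher one, without receptor segments, ribosomal, mitochondrial, hemoglobin and unnamed genes, marker genes and those of the cell limits, then up to 4 members of each list with the largest ratios, plus Gzma, Gzmb, Prf1, Tbx21, Pdcd1, Ifng, Tcf7 and Ccr7. Other genes, mostly list members, were named after their values were seen. Some of them passed 1.5-fold, such as Nkg7, Lgals3, Vim and Id2, and others did not. Scrublet, run through scanpy 1.11.5, marked 0 of 1261 Oxali and 6 of 1177 Combo barcodes and none of the kept cells, which is no working check on doublets. Positions of 6439 of 6444 genes came from GENCODE for GRCm38, and promoters from RefSeq (GRCm38.p6), with 5140 tested genes matched. The ratio and interval code was tested on simulated data. Python 3.11.15, numpy 2.4.6, scipy 1.17.1 and pandas 2.3.3 were used. Alternatives changed the cell limits, depth, scaling, gene minimum and call rule. A few genes that were measured, including members of the cell groupings and lists, are not reported here.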

Additional observations from a re-analysis of the deposited data

Results flagged for a closer look

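Of the genes measured in both comparisons, 42 called higher in Combo against Oxali were called lower in aPD-L1 against Ctrl, and 13 the other way round. The 14 below are those among the named genes. They lay at least 1.5-fold one way in Combo against Oxali and at least 1.5-fold the other way in aPD-L1 against Ctrl. The difference was not tested, since each group is 1 library.

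The MHC class II genes were lower with Combo and higher with aPD-L1. The Combo to Oxali ratio was 0.260 for H2-Ab1, 0.293 for Cd74 and 0.431 for H2-Aa, and the aPD-L1 to Ctrl ratio 2.48, 1.59 and 2.43. One Oxali cell held 34.8% to 47.0% of the Oxali UMIs of each.

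The other genes were higher with Combo and lower with aPD-L1. For the cytokines and chemokines the ratios of Combo to Oxali and of aPD-L1 to Ctrl were 5.37 and 0.347 for Ifng, 2.52 and 0.343 for Ccl3, and 1.62 and 0.640 for Ccl4. For regulators of activation they were 2.42 and 0.474 for Bhlhe40, 2.23 and 0.325 for Rgs1, 1.69 and 0.369 for Nr4a2, and 1.81 and 0.207 for Fosb. For Ikzf2 they were 1.99 and 0.592, for Tnfrsf4 1.75 and 0.588, for Cd44 1.62 and 0.584, and for Ifitm1 11.1 and 0.577. Ctrl also had the most RNA of heat shock genes, with Hspa1a at 2171 CPM against 487.4 with aPD-L1, 168.7 with Oxali and 186.9 with Combo. The AP-1 and immediate early list, which includes Fosb, summed to 11450 CPM in Ctrl, 5814 with aPD-L1, 5482 with Oxali and 5644 with Combo. In aPD-L1 against Ctrl 19 of its 26 measured genes were lower and none higher. Of 27 T-cell receptor signal genes, 9 were lower and none higher. What these differences contribute to the ratios was not tested.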

How the results depend on the processing

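Of 491 genes higher and 179 lower in Combo, the count of higher genes was 252 in naive-marker low and 315 in naive-marker high cells, 300 without ribosomal protein and mitochondrial genes in the CPM, 915 at a minimum of 20 UMIs, 261 at 100 and 88 at 2-fold. The count of lower genes was 426 with no macrophage limit, 117 in naive-marker low cells, 118 after thinning, 340 without ribosomal protein and mitochondrial genes, 292 with the median set to 0, 477 at 20 UMIs, 73 at 100 and 37 at 2-fold. The range and minimum settings test other numbers of genes, and the causes of the other shifts were not tested. The Ifitm family median turned to −0.10 with no macrophage limit and −0.033 in naive-marker high cells. Ratios crossed 1 in naive-marker low cells for Tdrp (1.11), H2-Aa (1.21), Sesn1 (1.02), Nfatc2 (0.954), Ccl4 (0.943) and Stmn1 (0.938). In naive-marker high cells this held for Slc16a1 (1.13), Prf1 (0.922), Plk3 (0.975), Ifitm3 (0.961) and Ifitm2 (0.950). With no macrophage limit Slc16a3 was at 0.756, Ifitm3 at 0.692 and Ifitm2 at 0.747. H2-Aa was at 1.01 with no division limit and 1.24 without the 5% of cells with the most UMIs. Of the 98 named genes that were called, between 54 of 91 measured (naive-marker low) and 98 (without the top cell) stayed past 1.5-fold, with 74 when no macrophage limit was set. No paired analysis was possible because each group is 1 library, and no replicate could be left out.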

Other observations

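Combo cells with an Ifitm1 UMI, a group chosen after the values were seen, were rich in killing genes. They were 33 of 583 cells, 24 of them with at least 3 UMIs, and had a median of 3849 UMIs against 2800 in the others. Without the cell that held most Ifng UMIs, which was one of them, 32 cells stood against 550. Gzmb was 5.72-fold higher in them [5.16, 6.33], Prf1 4.14-fold [3.03, 5.57], Tnfrsf9 4.62-fold [3.32, 6.33] and S100a4 4.52-fold [3.82, 5.33], whereas Ccr7 had a ratio of 0.274 [0.0559, 0.817] and Tcf7 of 0.314 [0.114, 0.694]. Pdcd1 was 1.94-fold higher [1.44, 2.57]. Spp1, which macrophages also make, was 9.59-fold higher [6.65, 13.7], and Ifitm2 9.53-fold [6.22, 14.5]. In Oxali 10 of 709 cells had an Ifitm1 UMI. Whether these cells are doublets or another lymphocyte type was not tested.

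Among genes in no list, Tmem176b was at 19.63 CPM in Ctrl, 27.77 with aPD-L1, 21.77 with Oxali and 66.64 with Combo, 3.06-fold higher in Combo than in Oxali [2.19, 4.35]. Cmah, a gene of sialic acid synthesis, was at 51.76, 54.34, 60.77 and 24.55 CPM in the order Ctrl, aPD-L1, Oxali and Combo, 2.48-fold lower [1.77, 3.51]. It stayed lower in both naive-marker ranges, at 0.445 and 0.570.

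The calls in the remaining lists stand beside 7.62% of all genes higher and 2.78% lower. Of 15 interferon gamma signaling genes 2, Irf8 and Cish, were higher, of 27 protein folding genes 2, Xbp1 and Pdia6, of 10 mitotic genes 1, Stmn1, and of 12 amino acid transport genes none. Of 10 cholesterol genes 1, Srebf2, was lower. Dendritic cell markers summed to 359.6 CPM in Oxali and 484 in Combo, epithelial markers to 54.87 and 76.66, endothelial markers to 29.02 and 26.56, neutrophil markers to 0.907 and 13.53, and mast cell markers to 1.36 and 0.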
